A study of Mus musculus with 12 samples.

Results

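The glycolytic enzymes of 3T3-L1 cells were described here across adipogenesis with and without a knockdown of Fto. The 10 genes were Hk2, Pfkl, Pfkp, Pfkfb3, Aldoa, Gapdh, Pgk1, Eno1, Pkm and Ldha, of 55487 genes in the table. They were found by gene name, and for Aldoa, whose name stood on a second row that reached at most 7.42 TPM, the row with the higher mean was used. 3T3-L1 is a mouse fibroblast line of embryonic origin that turns into adipocytes after hormonal induction with MDI medium. A lentivirus had given the cells either a scrambled control hairpin, named shScram, or shFTO, which targets Fto, the gene of a demethylase of the RNA mark m6A. Both lines were selected with puromycin. They were sampled as preadipocytes (Pre), at mitotic clonal expansion (MCE), when induced cells divide again, and as differentiated cells (Diff), with 2 libraries in each of the 6 groups. The sources used here do not name the hairpin that the sequenced cells carried, and each hairpin type was a selected line, so a difference between the lines cannot be told apart from a difference between 2 cell populations. Nothing in the labels says that the 2 libraries of a group came from separate cultures, so the p-values measure only the spread between these libraries, which may be technical.

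Glycolysis splits glucose into pyruvate in the cytosol and yields ATP and NADH. Hexokinase traps glucose in the cell, phosphofructokinase commits it to the pathway, and lactate dehydrogenase turns pyruvate into lactate and thereby restores NAD+. In fat cells the pathway also supplies glycerol 3-phosphate and acetyl-CoA for the making of triglycerides. Dividing cells and cells short of oxygen are known for high levels of these enzymes, and many of the genes are targets of the transcription factors HIF1 and MYC.

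Most of the 10 transcripts rose at MCE and stood highest there in shFTO cells. The values are TPM, the share of all transcripts after correction for transcript length, so levels of different genes can be compared. Added together, the 10 genes made up 0.469% and 0.836% of all TPM in the shScram preadipocyte libraries, 1.20% and 1.265% at MCE, and 0.886% and 0.850% at Diff. In shFTO cells the sums were 0.787% and 0.733% in preadipocytes, 1.80% and 1.76% at MCE, and 1.20% and 1.25% at Diff. Both shFTO libraries thus exceeded both shScram libraries at MCE and at Diff, and the lines overlapped in preadipocytes. In bulk samples such as these, fewer cells of a type and less RNA per cell cannot be told apart.

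The order of the levels held at its top and bottom and shifted in the middle. From preadipocytes to MCE, Ldha went from rank 6 to rank 3 in both lines. Aldoa went from rank 3 to rank 5 in shScram cells and to rank 6 in shFTO cells. Gapdh or Pkm was the highest of the 10 genes in every group, and Aldoa, Pgk1, Eno1 and Ldha came next with group means from 651 TPM (Ldha in shFTO preadipocytes) to 2512 TPM (Ldha in shFTO cells at MCE). Pfkl, Pfkp, Hk2 and Pfkfb3 closed the order in every group, with means from 342 TPM (Pfkl in shFTO cells at MCE) down to 5.19 TPM (Pfkfb3 in shScram cells at MCE). Neighbours whose libraries overlapped were Pkm and Gapdh, Aldoa, Eno1, Pgk1 and Ldha, and Pfkl and Pfkp in shScram preadipocytes, and Pgk1 and Aldoa at MCE in shScram cells. Among differentiated shScram cells Pkm overlapped Pgk1 and Pgk1 overlapped Aldoa. In shFTO cells the overlapping neighbours were Gapdh with Pkm and Pgk1 with Ldha in preadipocytes, and Pgk1 with Ldha at Diff.

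**Figure D1:**
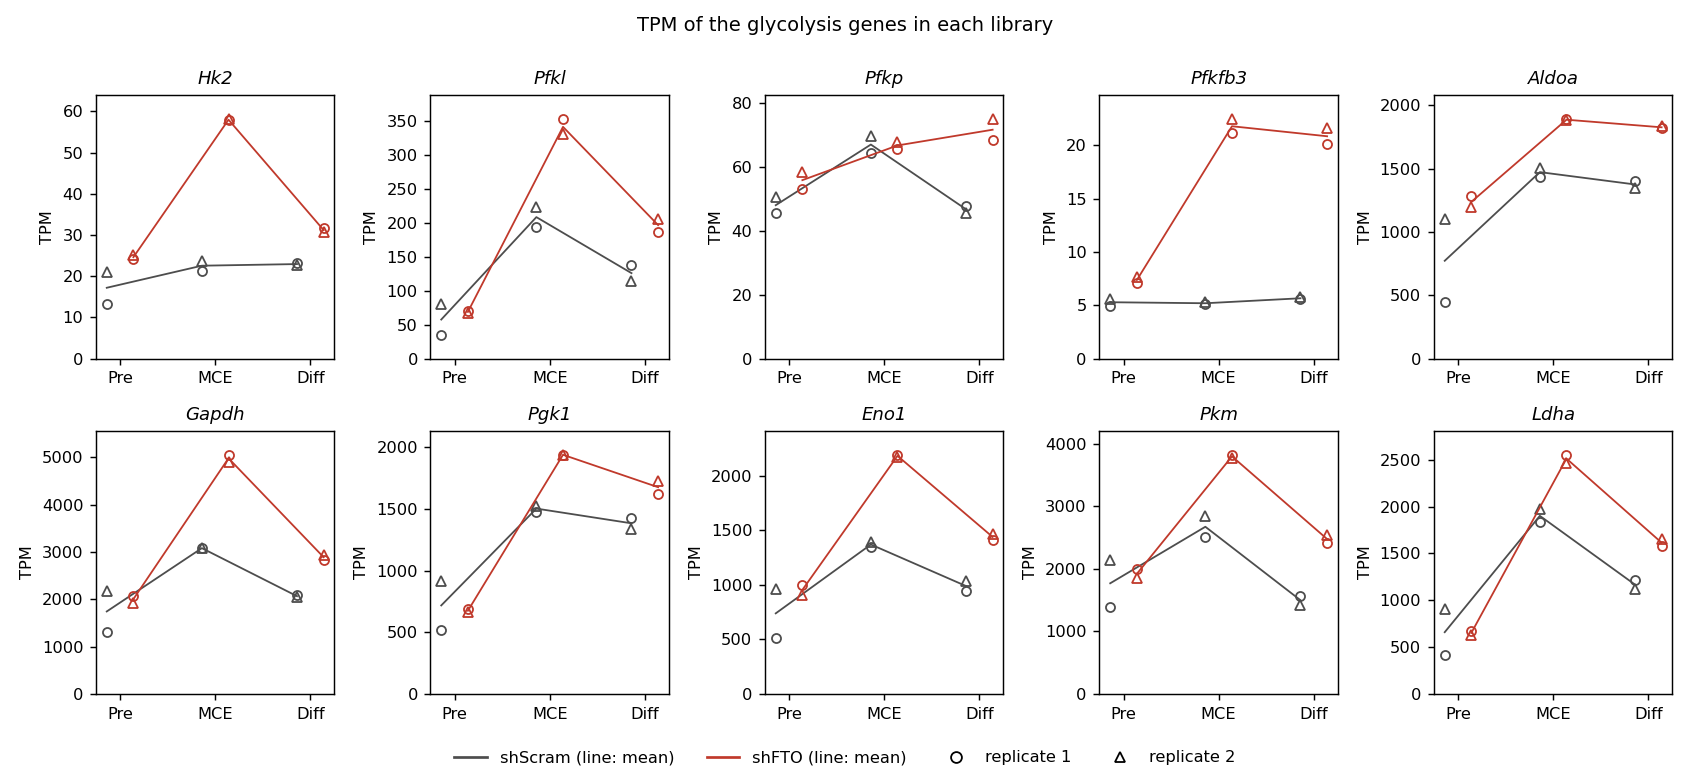
TPM of each of the 10 genes in each library (y axis, TPM from 0) at the 3 stages (x axis), with circles for replicate 1, triangles for replicate 2 and lines through the means of the 2 libraries, grey for shScram and red for shFTO. The red line is highest at MCE for all genes but Pfkp, Pfkfb3 stays near 5 TPM in shScram cells but lies between 20.1 and 22.5 TPM at MCE and Diff in shFTO cells, and Pfkp parts between the lines at Diff.

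The DNA before the transcription start is shown for 4 of the 10 genes. These 4 held the most matches in a window to the core of the hypoxia response element, the sequence that HIF1 binds. They were picked by these matches and not by their changes. The windows are the 250 bases before a RefSeq start on GRCm38.p6, read 5′ to 3′ on the strand of the gene. The motif searched was ACGTG on both strands, which reads CACGT on the other strand, and capitals mark each match. A match to CACGTG, the E-box that MYC and other factors bind, overlaps 2 matches of the shorter motif. Both matches in the Pfkfb3 window come from 1 such E-box. Hk2 (chr6:82774455-82774704, minus strand), Ldha (chr7:46845554-46845803, plus strand), Pfkfb3 (chr2:11502091-11502340, minus strand) and Pgk1 (chrX:106186850-106187099, plus strand) had these windows:
Hk2: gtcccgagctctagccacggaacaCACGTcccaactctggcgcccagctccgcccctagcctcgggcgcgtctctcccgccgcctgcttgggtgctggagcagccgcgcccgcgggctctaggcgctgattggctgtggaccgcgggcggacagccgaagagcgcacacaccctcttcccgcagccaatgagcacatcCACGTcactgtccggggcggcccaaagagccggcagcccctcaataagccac
Ldha: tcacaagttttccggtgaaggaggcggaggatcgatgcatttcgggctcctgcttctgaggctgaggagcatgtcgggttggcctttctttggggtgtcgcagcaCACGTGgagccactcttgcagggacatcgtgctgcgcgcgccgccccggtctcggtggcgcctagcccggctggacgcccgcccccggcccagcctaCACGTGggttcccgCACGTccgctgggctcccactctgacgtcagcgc
Pfkfb3: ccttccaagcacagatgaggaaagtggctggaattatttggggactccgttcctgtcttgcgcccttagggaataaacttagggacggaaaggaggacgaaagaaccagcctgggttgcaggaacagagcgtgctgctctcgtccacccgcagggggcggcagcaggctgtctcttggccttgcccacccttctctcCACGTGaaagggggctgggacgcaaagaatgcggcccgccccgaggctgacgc
Pgk1: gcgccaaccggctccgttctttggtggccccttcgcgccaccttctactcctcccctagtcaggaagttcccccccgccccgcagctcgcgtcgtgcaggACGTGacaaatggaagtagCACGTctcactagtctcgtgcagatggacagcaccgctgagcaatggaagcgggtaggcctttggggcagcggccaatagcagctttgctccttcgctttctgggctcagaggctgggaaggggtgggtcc

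Counted from the start, the Ldha blocks lay at -145 to -140, -48 to -43 and -34 to -30, the Hk2 blocks at -226 to -222 and -52 to -48, the Pgk1 blocks at -150 to -146 and -131 to -127, and the Pfkfb3 block at -53 to -48. At least 1 match stood before a start of 6 of the 10 genes, namely Hk2, Pfkfb3, Aldoa, Pgk1, Pkm and Ldha. Pfkl, Pfkp, Gapdh and Eno1 had no match. Of the 17 windows of the 10 genes, 8 held a match. The Aldoa windows with a match overlap and hold the same one. Over all RefSeq genes with a window the share was 18.5% of 27025 genes and 16.6% of 32851 windows. CACGTG was found for Pfkfb3 and Ldha, against 6.86% of all genes. GGGCGG, the GC box bound by SP1 and its relatives, stood on either strand before 8 of the 10 genes and 35.4% of all genes. These are matches of letters and say nothing of binding.

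Before the changes are given, a few facts on the libraries are needed. Fto was between 52.7 and 73.5 TPM in the 6 shScram libraries and between 5.51 and 7.47 TPM in the 6 shFTO libraries. The treatment entry of shScram Diff replicate 1 names the knockdown while its title names the control, and it was grouped by its title. In that library Fto was at 73.5 TPM, the highest of the shScram libraries and far above every shFTO library. Fibroblast markers summed to 8389 TPM or more in every library, whereas the markers of leukocytes, endothelium and epithelium, and skeletal muscle summed to at most 4.06, 2.05 and 13.7 TPM. The r between the libraries of a group, taken over genes that are no independent replicates, was 0.990 to 0.993 except in shScram preadipocytes (0.939). The difference between those 2 libraries fell with the GC content of the genes (Spearman's rho -0.69, against -0.20 to 0.36 in the other groups), and replicate 1 was the lower of the 2 for all 10 genes. For Ldha, for example, it held 412 TPM and replicate 2 held 906 TPM. How deeply a library was sequenced cannot be read from TPM and is unknown.

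All changes below are differences on the log2(TPM + 1) scale, which understates changes of low values, tested by limma over 15968 genes with an adjusted p under 0.05 (Benjamini-Hochberg) as the threshold, so the wide spread of the shScram preadipocyte pair enters every comparison. Counts over the 10 genes and the knockdown counts of the lists at MCE and Diff are therefore also given without shScram Pre replicate 1, an alternative that changes no group mean at MCE or Diff but narrows the common spread. For fits without an MCE or Diff library the share of all genes called is not given, so their counts cannot be set against it.

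In shScram cells, 8 of the 10 genes rose from preadipocytes to MCE. The exceptions were Hk2 (0.40, adjusted p = 0.109 by limma) and Pfkfb3 (-0.02, adjusted p = 0.917 by limma). Hk2 was at 0.715 when shScram Pre replicate 2 was left out, so its value hung on that pair. Of all genes, 12.2% rose and 26.9% fell in that comparison. Without shScram Pre replicate 1 the count was again 8, against 12.9% of all genes, but the median over the 10 genes was 0.46 where it was 0.91 on 12. Without shScram MCE replicate 1 or 2, the counts were 4 and 3, with Pfkl, Pgk1 and Ldha called in both. The share of all genes called without either MCE library is not given, so those counts cannot be set against it. From preadipocytes to MCE the median over all genes was -0.17 in shScram cells and -0.18 in shFTO cells. From MCE to Diff it was 0.23 and 0.17. Under a scaling that removes those shifts Pfkfb3 was at 0.16 in shScram cells from preadipocytes to MCE.

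The gain was largest for Pfkl, the liver-type phosphofructokinase, among the 10 genes. Pfkl held 34.6 and 80.3 TPM in shScram preadipocytes and 194 and 223 TPM at MCE, a change of 1.96 (SE 0.31, adjusted p = 0.00156 by limma). It was 1.36 without shScram Pre replicate 1 and 2.55 without replicate 2. Its share of the TPM of the 3 phosphofructokinase genes Pfkl, Pfkm and Pfkp went from 27.3% and 40.5% to 59.7% and 62.3%. Ldha, the muscle-type lactate dehydrogenase subunit, rose from 412 and 906 TPM to 1831 and 1971 TPM (1.64, SE 0.30, adjusted p = 0.00304 by limma). Pgk1, the first enzyme of the pathway to yield ATP, rose from 516 and 919 TPM to 1479 and 1527 TPM (1.12, adjusted p = 0.00533 by limma). Aldoa, Gapdh, Eno1, Pkm and Pfkp rose by 0.47 (Pfkp) to 1.07 (Aldoa). Without shScram Pre replicate 1 Aldoa was at 0.42, Gapdh and Eno1 at 0.50 and Pkm at 0.31. Without replicate 2 instead, Aldoa was at 1.73 and Pkm at 0.94. With a correction for GC content Pkm was at 0.17 and not called (adjusted p = 0.282 by limma), and it was called in 10 of 24 alternatives. In 9 of the 10 genes, all but Pfkfb3, both MCE libraries exceeded both preadipocyte libraries, as did 21.8% of all genes, where 12.2% were called higher.

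In shFTO cells, too, 8 of the 10 genes rose from preadipocytes to MCE, here all but Pfkp and Aldoa, against 8.8% of all genes higher and 19.9% lower. Without shScram Pre replicate 1 the count was 10, against 15.8%. Pfkl went from 70.4 and 67.0 TPM to 353 and 330.4 TPM (2.30, SE 0.31, adjusted p = 0.000712 by limma). Ldha went from 676 and 627 TPM to 2554 and 2469.9 TPM (1.95, SE 0.30, adjusted p = 0.00134 by limma). Pgk1 rose by 1.52, Gapdh by 1.31, Hk2 by 1.20, Eno1 by 1.19 and Pkm by 0.98. The median over the 10 genes was 1.26. All 10 genes were higher in both MCE libraries than in both preadipocyte libraries, as were 25.5% of all genes.

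Pfkfb3 set the lines apart. It encodes the enzyme that makes fructose 2,6-bisphosphate, the strongest known activator of phosphofructokinase, and lies at chr2:11471433-11554077 on the minus strand of GRCm38. In shScram cells it held 4.94 and 5.63 TPM in preadipocytes, 5.08 and 5.30 TPM at MCE, and 5.55 and 5.76 TPM at Diff. In shFTO cells it held 7.05 and 7.69 TPM in preadipocytes, 21.1 and 22.5 TPM at MCE, and 20.1 and 21.6 TPM at Diff. No shFTO library overlapped a shScram library of any stage. The change from preadipocytes to MCE was 1.45 (SE 0.13, adjusted p = 7.13e-05 by limma) in shFTO cells and -0.02 in shScram cells, and the difference between the lines was itself past the threshold (1.47, SE 0.18, adjusted p = 0.00314 by limma). It was the only one of the 10 genes past the threshold in that interaction, in which 5.11% of all genes were called. On the 11 libraries without shScram Pre replicate 1 the interaction was called higher for 8 of the 10 genes, all but Pfkp and Aldoa, against 14.1% of all genes in either direction. That count rests on the remaining shScram preadipocyte library, since without replicate 2 instead 3 genes were called, Pfkfb3 and Hk2 higher and Aldoa lower (-1.12, adjusted p = 2.4e-05 by limma), in a fit that called 52.5% of all genes.

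**Figure D2:**
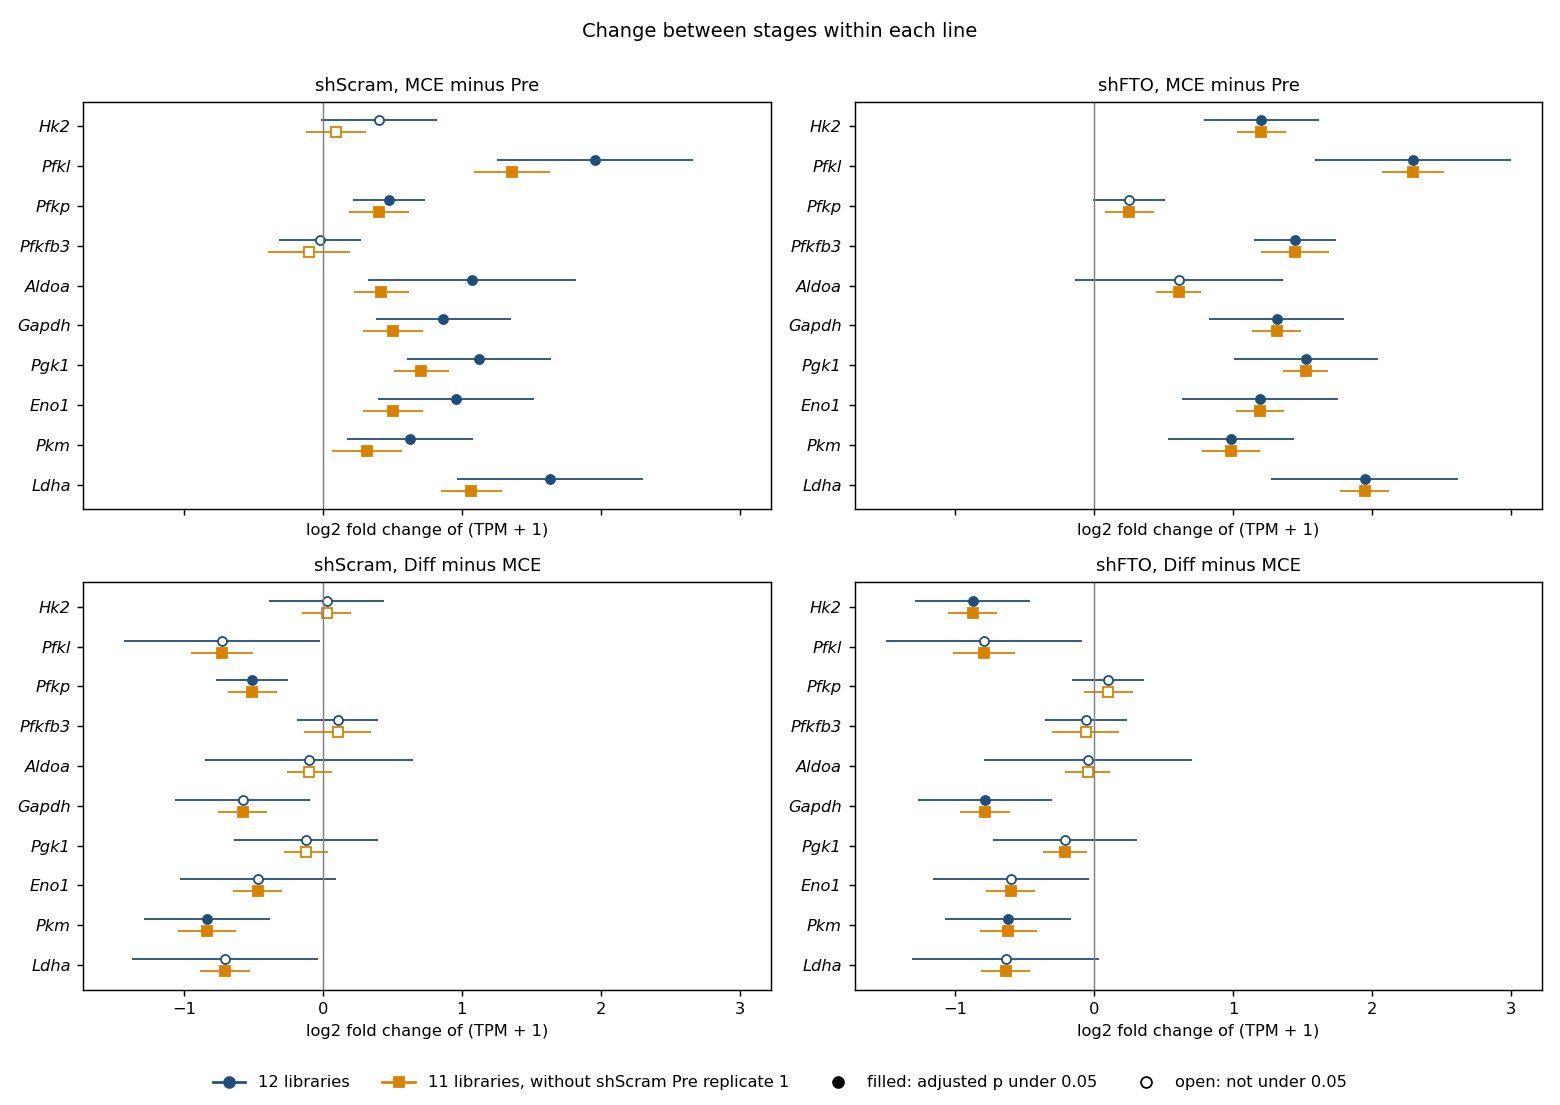
Change of the 10 genes between stages on the log2(TPM + 1) scale (x axis) with 95% confidence intervals from limma, from preadipocytes to MCE (top) and from MCE to Diff (bottom), in shScram (left) and shFTO cells (right). Circles are the fit on 12 libraries and squares that on 11, filled where the adjusted p is under 0.05. Most points lie above 0 in the top row and below 0 in the bottom row, and most intervals are shorter on 11 libraries.

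At MCE the knockdown went with higher levels of hexokinase 2 and of Pfkfb3. Hk2, which encodes the inducible hexokinase (chr6:82725025-82774454, minus strand), held 21.3 and 23.8 TPM in shScram cells and 57.9 and 58.1 TPM in shFTO cells. That difference was 1.33 (SE 0.18, adjusted p = 0.00144 by limma), with group means of 22.5 ± 1.78 and 58.0 ± 0.152 TPM (SD, n = 2 libraries each). Pfkfb3 was 1.88 higher (SE 0.13, adjusted p = 3.6e-05 by limma), 4.20-fold by the means of 5.19 ± 0.156 and 21.8 ± 0.928 TPM (SD, n = 2 libraries each). These 2 were the genes past the threshold, with 10.5% of all genes called higher and 7.26% lower.

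For 7 further genes both shFTO libraries exceeded both shScram libraries at MCE with no adjusted p under 0.05 on 12 libraries. Gapdh, the oxidising step of the pathway, held 3076 and 3088 TPM in shScram cells and 5058 and 4905 TPM in shFTO cells (0.69, adjusted p = 0.0562 by limma). Eno1, an enolase, held 1344 and 1393 against 2191 and 2169 TPM. Pfkl held 194 and 223 against 353 and 330.4 TPM. The groups of these 3 genes were far apart next to the spread of their own MCE libraries, and the common spread of the fit was wider. Differences of 0.36 (Aldoa), 0.37 (Pgk1), 0.40 (Ldha) and 0.51 (Pkm) stood beside them. Aldoa cleaves fructose 1,6-bisphosphate, and Pkm, a pyruvate kinase, makes pyruvate and ATP.

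With shScram Pre replicate 1 left out, which takes no part in the MCE means, 9 of the 10 genes were called higher at MCE, against 25.2% of all genes, and the same count came from the 4 MCE libraries alone and from the 10 libraries without shScram preadipocytes. The adjusted p values on 11 libraries ran from 8.14e-07 for Pfkfb3 to 0.00282 for Aldoa (limma). For the fits on 4 and on 10 libraries the share of all genes called is not given, so their counts cannot be set against it. The exception in the counts on 11, 4 and 10 libraries was Pfkp, the platelet-type phosphofructokinase. It held 64.6 and 69.6 TPM in shScram cells and 65.7 and 67.9 TPM in shFTO cells (-0.005, adjusted p = 0.99 by limma on 12 libraries). Its 95% interval on 12 libraries ran from -0.26 to 0.25. The median over the 10 genes was 0.59 and that over all genes 0.05. Groups that did not overlap were seen for 9 of the 10 genes, all with shFTO higher, and for 41.1% of all genes in that direction. On 12 libraries 10.5% of all genes were called higher.

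**Figure D3:**
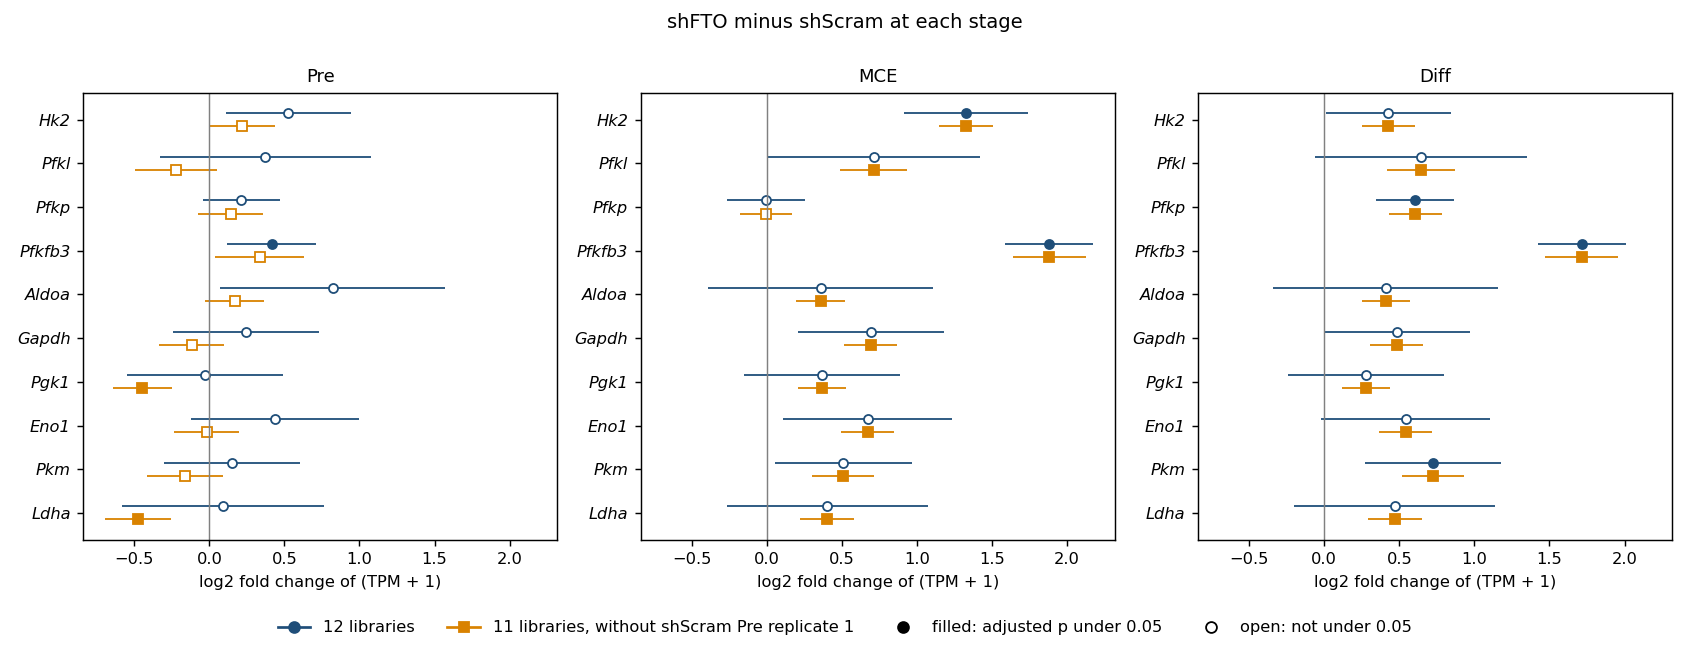
Difference between shFTO and shScram cells for the 10 genes at each stage on the log2(TPM + 1) scale (x axis) with 95% confidence intervals from limma. Circles are the fit on 12 libraries and squares that on 11, filled where the adjusted p is under 0.05. Squares at Pre lie on both sides of 0, those at MCE are filled for 9 genes and those at Diff for all 10, and Pfkfb3 is farthest to the right at MCE and Diff.

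At Diff, Pfkfb3, Pkm and Pfkp were higher in shFTO cells. Pfkfb3 was 1.72 higher (SE 0.13, adjusted p = 4.06e-05 by limma). Pkm (chr9:59656368-59679375, plus strand) held 1571 and 1425 TPM in shScram cells and 2419 and 2534 TPM in shFTO cells (0.73, SE 0.20, adjusted p = 0.0317 by limma). Pfkp (chr13:6579768-6648777, minus strand) held 47.8 and 45.8 TPM in shScram cells and 68.5 and 75.0 TPM in shFTO cells (0.60, SE 0.11, adjusted p = 0.00595 by limma). In that comparison 11.9% of all genes were called higher and 9.31% lower.

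The other 7 genes at Diff were between 0.28 (Pgk1) and 0.64 (Pfkl) higher without passing the threshold. Hk2 held 23.1 and 22.8 TPM in shScram cells and 31.6 and 30.8 TPM in shFTO cells. Ldha held 1218 and 1116 against 1576 and 1652 TPM. Gapdh held 2083 and 2049 against 2835 and 2944 TPM. In all 10 genes both shFTO libraries exceeded both shScram libraries, as in 39.0% of all genes. On 11 libraries, without shScram Pre replicate 1, all 10 were called higher, against 25.3% of all genes, with adjusted p from 1.47e-06 (Pfkfb3) to 0.0102 (Pgk1) by limma. Without the library whose labels disagree, shScram Diff replicate 1, Pfkfb3 and Pfkp were called and Pkm was not (0.80, adjusted p = 0.0993 by limma), and without shScram or shFTO Diff replicate 2 the 1 gene called was Pfkfb3.

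In preadipocytes Pfkfb3 was the 1 gene called higher in shFTO cells (0.41, SE 0.13, adjusted p = 0.0435 by limma), against 15.9% of all genes higher and 12.3% lower. Both shFTO libraries exceeded both shScram libraries for 4 of the 10 genes, near the 33.6% of all genes. Which way the others leaned depended on the shScram library. Without replicate 1, Pgk1 (-0.45, adjusted p = 0.00441 by limma) and Ldha (-0.48, adjusted p = 0.00564 by limma) were called lower, against 12.9% of all genes lower, and Pfkfb3 was not called (0.34, adjusted p = 0.0862 by limma). Without replicate 2 all 10 genes were called higher, by 0.29 to 1.47, in a fit that called 37.6% of all genes higher. With a correction for GC content Pkm was called lower (-0.52, adjusted p = 0.0119 by limma) and Pfkfb3 higher (0.36, adjusted p = 0.0339 by limma). The call of Pfkfb3 was lost when any library but shScram Pre replicate 2 was left out.

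From MCE to Diff, Pfkp fell by 0.51 (adjusted p = 0.0126 by limma) and Pkm fell by 0.83 (adjusted p = 0.0167 by limma) in shScram cells, where 5.22% of all genes fell and 20.0% rose. In shFTO cells Hk2 fell by 0.87 (adjusted p = 0.00825 by limma), Gapdh fell by 0.79 (adjusted p = 0.0256 by limma) and Pkm fell by 0.62 (adjusted p = 0.0499 by limma, called in 12 of 25 alternatives), where 6.48% of all genes fell and 20.2% rose. Both Diff libraries lay below both MCE libraries for 8 of the 10 genes in each line, and for 21.4% (shScram) and 27.2% (shFTO) of all genes. Without shScram Pre replicate 1 the counts were 6 in shScram cells, against 13.7% of all genes lower, and 7 in shFTO cells, against 16.4%. Without shScram Diff replicate 1 the shScram count was 0, with 2 at an unadjusted p under 0.05, Pfkp (adjusted p = 0.0531 by limma) and Pkm (adjusted p = 0.061 by limma). In that fit Pfkp was at -0.54 and Pkm at -0.90. The share of all genes at either threshold is not given for it, so its counts cannot be set against that share. With the all-gene shift scaled out, the directions of Hk2 (-0.22) and Pfkfb3 (-0.11) in shScram cells and of Pfkp (-0.09) in shFTO cells turned to lower, none of them called.

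The difference between the lines in that second step was past the threshold for 0 of the 10 genes, against 2.49% of all genes by limma. An unadjusted p under 0.05 was reached by 2 of them, Hk2 (-0.90, adjusted p = 0.126 by limma) and Pfkp (0.61, adjusted p = 0.0954 by limma). The share of all genes at an unadjusted p under 0.05 is not given, so this count cannot be set against it. Pfkp went from 64.6 and 69.6 to 47.8 and 45.8 TPM in shScram cells and from 65.7 and 67.9 to 68.5 and 75.0 TPM in shFTO cells. Hk2 went from 21.3 and 23.8 to 23.1 and 22.8 TPM in shScram cells and from 57.9 and 58.1 to 31.6 and 30.8 TPM in shFTO cells. On 11 libraries, without shScram Pre replicate 1, both were called, Hk2 lower and Pfkp higher, against 17.1% of all genes in either direction.

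The balance between isozymes followed these changes. Hk2 made up 22.3% and 23.9% of the TPM of Hk1 and Hk2 in shScram cells at MCE, against 34.4% and 35.7% in shFTO cells. The shares were 21.1% and 18.5% against 25.9% and 27.7% in preadipocytes, and 25.0% and 25.3% against 26.9% and 25.4% at Diff. Pfkfb3 made up 15.9% and 16.2% of the 4 PFKFB genes at MCE in shScram cells, against 38.4% and 39.7% in shFTO cells. At Diff its shares were 13.7% and 13.2% against 35.1% and 34.3%. Neither share overlapped between the lines at any of these stages, and the Hk2 shares lay closest together at Diff. Ldha was 96.3% or more of the TPM of Ldha and Ldhb in the 4 MCE libraries. Pfkl reached 71.2% and 69.4% of the 3 phosphofructokinase genes in shFTO cells at MCE, above the 59.7% and 62.3% of shScram cells.

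**Figure D4:**
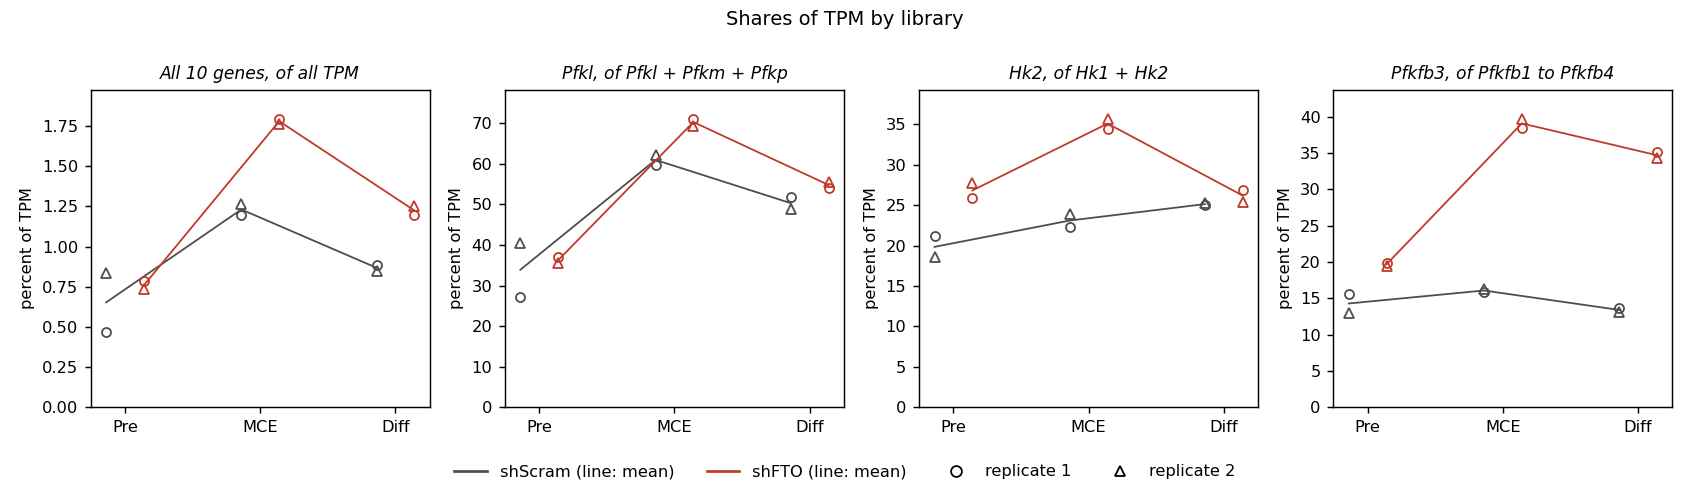
Share of TPM (y axis, percent from 0) in each library at the 3 stages (x axis) for the 10 genes together and for Pfkl, Hk2 and Pfkfb3 within their isozyme groups, with circles for replicate 1, triangles for replicate 2 and lines through the means, grey for shScram and red for shFTO. The Pfkfb3 share lies between 34.3% and 39.7% at MCE and Diff in shFTO cells and between 13.2% and 16.2% in shScram cells, while the Hk2 shares of the lines lie close together at Diff, the shFTO ones still higher.

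The remaining steps and isozymes were a list of 23 genes, of which 16 passed the filter on low values. At MCE 3 of the 16 were higher in shFTO cells and 0 lower, where 10.5% of all genes were higher and 7.26% lower. At Diff 2 were higher and 0 lower, near the 11.9% and 9.31% of all genes, namely Pgam1 and Eno2, neither of which was called without shScram Diff replicate 1. On the 11 libraries without shScram Pre replicate 1 the counts were 10 higher and 1 lower at MCE, against 25.2% and 15.8% of all genes, and 8 higher and 2 lower at Diff, against 25.3% and 20.4%. The same shares of all genes apply to the counts of the lists that follow. Pgam1, the mutase between Pgk1 and the enolases, held 846 and 879 TPM in shScram cells and 1583 and 1609 TPM in shFTO cells at MCE (0.89, adjusted p = 0.0234 by limma). Bpgm, which makes 2,3-bisphosphoglycerate, was 0.81 higher at MCE. Eno2, the neuronal enolase, was 1.53 higher at Diff (adjusted p = 0.0111 by limma). Tpi1, the triose isomerase, was 0.43 higher at MCE and at Diff without passing the threshold (adjusted p = 0.281 and 0.245 by limma). The constitutive hexokinase Hk1 was 0.51 higher at MCE (adjusted p = 0.176 by limma).

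Glucose enters through Slc2a1 (GLUT1), which was higher in shFTO cells at each stage. It held 35.7 and 77.1 TPM in shScram preadipocytes and 159.7 and 155 TPM in shFTO preadipocytes (1.57, adjusted p = 0.00622 by limma). At MCE the values were 65.4 and 72.8 against 187 and 188 TPM (1.43, SE 0.28, adjusted p = 0.00855 by limma), and at Diff 66.6 and 57.4 against 135 and 141 TPM (1.14, adjusted p = 0.0206 by limma). Slc2a4, the insulin-responsive transporter of fat cells, reached at most 1.18 TPM in any library and was not tested. Slc16a3, a lactate exporter, held 0.330 and 1.19 TPM in shScram cells and 5.40 in both shFTO libraries at MCE (1.91, adjusted p = 0.00487 by limma). At Diff it was 2.94 higher, with 1.58 and 0.517 against 13.7 and 14.8 TPM (adjusted p = 0.000405 by limma). The transporter Slc16a1 was lower in preadipocytes (-0.61, adjusted p = 0.0381 by limma) and not called at MCE (0.14) or Diff (0.28). The preadipocyte values of Slc2a1 and Slc16a1 rest on the shScram preadipocyte pair, whose libraries were the least alike of any group. Of the 12 genes listed for glucose and lactate transport, 7 were tested, and 3 were higher and 0 lower at MCE (10.5% and 7.26% of all genes) and again at Diff (11.9% and 9.31%). On 11 libraries 6 were higher at MCE and 5 at Diff, with 0 lower.

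In the mitochondria pyruvate dehydrogenase turns pyruvate into acetyl-CoA unless its kinases switch it off. Pdk1, a kinase of that group, held 32.2 and 30.8 TPM in shScram cells and 73.6 and 66.4 TPM in shFTO cells at MCE (1.13, adjusted p = 0.00059 by limma), and was 0.93 higher at Diff (adjusted p = 0.00131 by limma). Pdk4, another of them, held 41.2 and 38.9 against 17.4 and 15.1 TPM at MCE (-1.25, adjusted p = 0.000426 by limma) and 88.9 and 91.8 against 83.6 and 85.1 TPM at Diff (-0.10, adjusted p = 0.68 by limma). The 2 kinases thus moved apart at MCE. Of the 14 genes listed for the entry and oxidation of pyruvate, 2 were higher and 5 lower at MCE (10.5% and 7.26% of all genes), and 2 higher and 3 lower at Diff (11.9% and 9.31%). On 11 libraries 4 were higher and 6 lower at MCE, and 3 higher and 9 lower at Diff. The phosphatase Pdp1, which switches the complex on, was among the lower ones at both stages (-1.55 and -1.05), and Pdk3 among the higher ones (0.94 and 0.99).

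Genes of the HIF1 pathway and its known targets were higher as well. Of 16 genes in that list 10 were higher and 0 lower at MCE, where 10.5% of all genes were called higher, and 8 were higher and 1 lower at Diff, where 11.9% were. Hif1a itself, the oxygen-regulated subunit, held 143 and 123 TPM in shScram cells and 321 and 316 TPM in shFTO cells at MCE (1.26, adjusted p = 0.00604 by limma), and 124 and 135 against 236 and 252 TPM at Diff (0.91, adjusted p = 0.0234 by limma). Adm, which encodes adrenomedullin, was the highest of the list at both stages (3.38 and 3.04). Ndrg1 was the lower one at Diff (-1.53). In preadipocytes 4 of the 16 were higher and 5 lower, against 15.9% and 12.3% of all genes, and Hif1a was -0.32 (adjusted p = 0.308 by limma). These preadipocyte results are given on 12 libraries only and rest on the shScram pair, whose libraries were the least alike of any group. Without shScram Diff replicate 1 the Diff count was 5 higher and 1 lower, and on the 11 libraries without shScram Pre replicate 1 it was 10 higher and 2 lower, with 11 higher and 1 lower at MCE. RNA levels of Hif1a do not report the amount of its protein, which oxygen controls after translation.

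Other lists around the pathway gave these counts. Of 8 genes of the pentose phosphate pathway, 0 were called at MCE and 1 was higher at Diff (Rpe, 0.73), near the 11.9% of all genes. On 11 libraries 2 were higher and 1 lower at MCE, and 3 higher and 3 lower at Diff. Of 14 tested genes of branches and reverse steps, 5 were higher and 1 lower at MCE (10.5% and 7.26% of all genes) and at Diff (11.9% and 9.31%). On 11 libraries 8 were higher and 3 lower at MCE, and 7 higher and 2 lower at Diff, and without shScram Diff replicate 1 the Diff count was 2 higher and 1 lower. At MCE these included Pgm1 (1.02) and Gys1 (1.02), which lead to glycogen, and Psat1 (-0.93) of serine synthesis. At Diff they included Gpd1 (-3.38), which makes glycerol 3-phosphate for triglycerides, and Pck2 (1.57). Of 4 tested regulators, Myc among them, 0 were called at MCE (Myc -0.20, adjusted p = 0.505 by limma) or Diff (Myc 0.12, adjusted p = 0.685 by limma), and on 11 libraries 1 was lower at MCE and 2 at Diff.

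**Figure D5:**
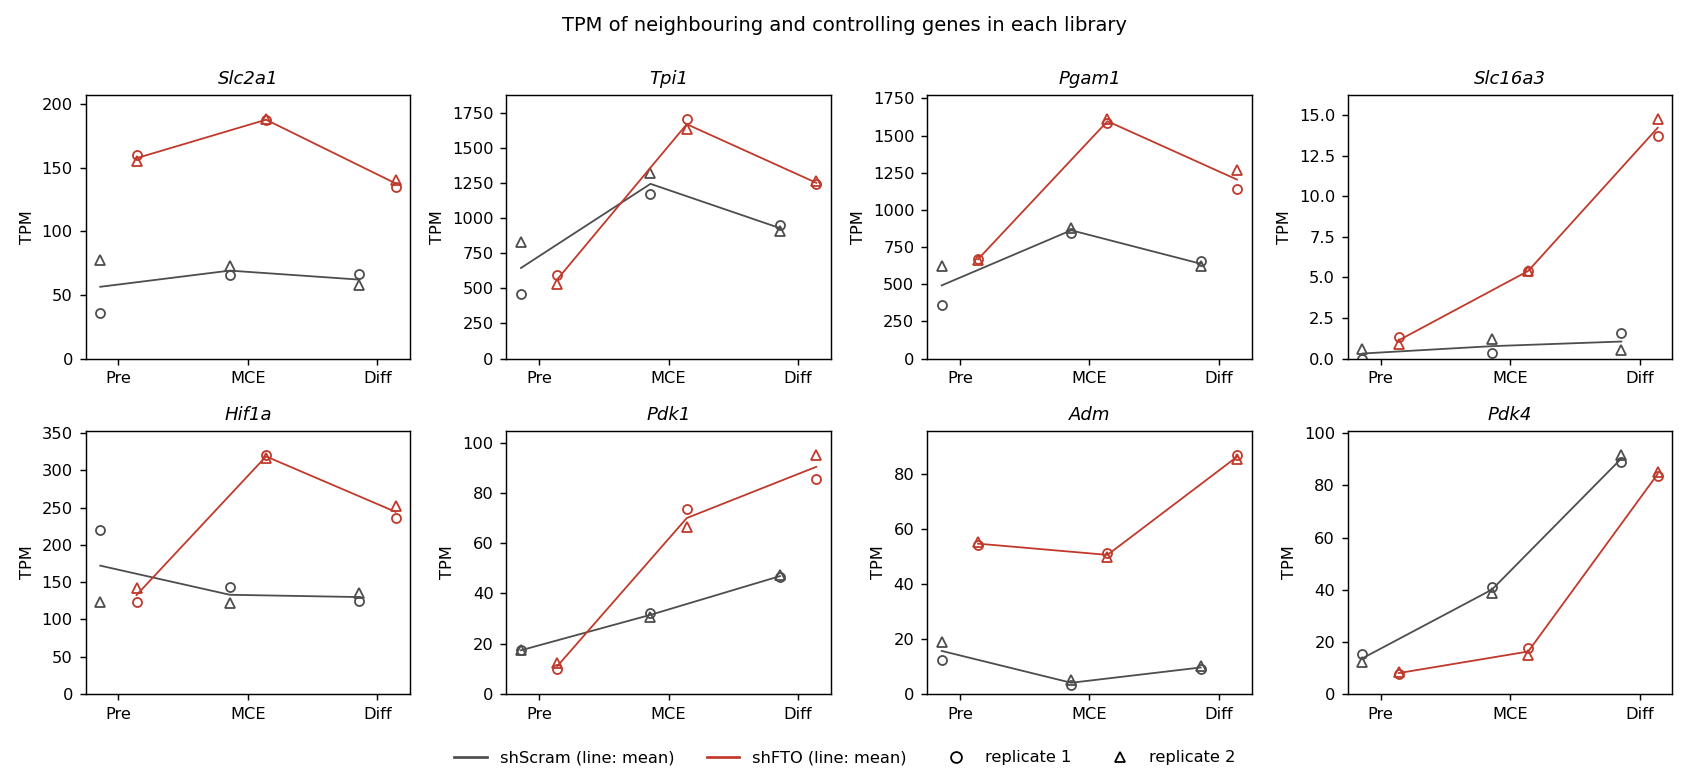
TPM (y axis, from 0) in each library at the 3 stages (x axis) of 8 genes around the pathway: Slc2a1, Tpi1, Pgam1, Slc16a3, Hif1a, Pdk1, Adm and Pdk4, with circles for replicate 1, triangles for replicate 2 and lines through the means, grey for shScram and red for shFTO. Slc2a1 is higher in shFTO cells at each stage, Pgam1, Slc16a3, Hif1a and Pdk1 at MCE and Diff, and Pdk4 is lower at MCE and within 0.10 on the log2 scale at Diff.

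Markers of adipocytes and of division moved with the lines too. Of 9 tested adipocyte markers, 7 were lower and 1 higher in shFTO cells at MCE, where 7.26% of all genes were lower and 10.5% higher. At Diff 8 were lower and 0 higher, where 9.31% and 11.9% were, and both counts were equal on 11 libraries. Their summed level at Diff was 1576 and 1565 TPM in shScram cells and 454 and 414 TPM in shFTO cells. Of 10 proliferation markers, 3 were higher and 1 lower at MCE and 7 higher and 0 lower at Diff (5 and 2, and 8 and 0, on 11 libraries, and 3 and 0 at Diff without shScram Diff replicate 1). The sums were 1153 and 1088 against 1260.3 and 1242 TPM at MCE and 320 and 290 against 439 and 466 TPM at Diff. All 10 of them had a TPM above 0 in every library. Of 10 fibroblast markers, 5 were higher and 2 lower at MCE, and 4 higher and 1 lower at Diff (7 and 3, and 7 and 1, on 11 libraries). Of the other lists, Cd68 was the 1 leukocyte marker tested and was not called at either stage, and Des, the 1 muscle marker tested, was 0.75 higher at MCE. No endothelial or epithelial marker passed the filter. The part of these markers in the levels of the glycolytic genes was not tested.

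Across the 12 libraries the 10 genes correlated with each other with Pearson's r from 0.57 to 0.99 over the 45 pairs (median 0.81), a description over libraries that share groups and a TPM scale. Eno1 was closest to the mean of the other 9 (r 0.98) and Pfkfb3 farthest (r 0.71) over 12 libraries. Over the 10 libraries without shScram preadipocytes Pfkp (r 0.688) and Pfkfb3 (r 0.693) were farthest. Outside the lists, the genes most like the mean profile, of 10688 with a mean TPM of 5 or more, were Gm13394 (r 0.98), a processed pseudogene in GENCODE M21, Efemp2 (r 0.98), which encodes an extracellular matrix protein, and Nfil3 (r 0.98), a transcription factor. Of those genes, 111 had an r over 0.9. Nfil3 held 54.5 and 61.6 TPM in shScram cells and 99.8 and 100.9 TPM in shFTO cells at MCE.

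Several of these genes share sequence with copies elsewhere, and the way reads were split among copies is not given in the sources used here. Eno1b, a retrogene of Eno1, held between 108 and 689 TPM, and Gapdh-ps16 and Gapdh-ps15 reached 161 and 126 TPM, so Eno1 and Gapdh are less certain than the rest. Pgk1-rs7 reached 16.3 TPM. No source used here says if strand was used in counting, and Pfkp overlaps Pitrm1 (56.1 to 129 TPM) and Gapdh overlaps Iffo1 (8.71 to 25.9 TPM) on the opposite strand. Pkm overlaps Gm49759 (25.2 to 107 TPM) on its own strand.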

How the data were processed

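RNA-seq of total RNA was analysed for 12 libraries. The authors trimmed reads (Trim Galore 0.6.5), aligned them to GRCm38 (HISAT2 2.1.0) and deposited TPM values from StringTie 2.1.4, which fix each library's total and keep no depth. Their count-based DESeq2 1.30.1 analysis was not used here.

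Groups came from the titles. Genes with at least 1 TPM in 2 of 12 libraries (15968 of 55487) were tested as log2(TPM + 1) with limma 3.58.1 (R 4.3.3), with a mean per group, eBayes with trend, 6 residual degrees of freedom, two-sided moderated tests and Benjamini-Hochberg adjustment over all genes. The script was tested on simulated data. The 10 genes, the lists and the tests were chosen with earlier results of these data known. Named were the 10 genes, Fto, the remaining steps and isozymes, Slc2a1, Slc2a4, Slc16a1, Slc16a3, Hif1a, Myc, Pdk1 and Pdk4, of each other list up to 2 called genes with the highest and 2 with the lowest change and a mean TPM of 5 or more, and the 3 genes outside the lists most like the mean profile. GC content came from GENCODE M21 (99.5% of IDs matched) and sequences from RefSeq. A gene of the list of isozymes is not reported here and was left out of its counts. Alternatives were other pseudocounts (0.1 and 5), filters, scalings, libraries, a replicate block, a GC correction, robust estimation and added pseudogene copies. The copies were found by symbol, so Eno1b was not added to Eno1, and the part of that copy was not tested. Tables and figures used Python 3.11.15, numpy 2.4.6, pandas 2.3.3 and matplotlib 3.10.9.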

Additional observations from a re-analysis of the deposited data

Results flagged for a closer look

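The results below are genes that passed the interaction of line and stage (limma, adjusted p under 0.05), a test of the difference between the lines. They come from the glycolytic genes and the lists around them. Of all genes, 5.11% passed it from preadipocytes to MCE and 2.49% from MCE to Diff, in either direction. Each value is the log2(TPM + 1) change in shFTO cells minus that in shScram cells. From preadipocytes to MCE, Pfkfb3 differed by 1.47 (adjusted p = 0.00314 by limma). Of the kinases of pyruvate dehydrogenase, Pdk1 differed by 1.75 and Pdk3 by 1.24. In the HIF1 list Hif1a differed by 1.58, Adm by 1.61, Bnip3 by 1.85 and Bnip3l by 0.88. Among the branches Ugp2 differed by 0.93, Pgm1 by 0.74, Gfpt2 by 1.08 and Psat1 by 0.71. The transporter chaperone Emb differed by 1.32, and Eno3, the muscle enolase, by -1.44. These 13 values rest on the shScram preadipocyte pair, whose libraries were the least alike of any group (r 0.939).

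From MCE to Diff, Pdk4 differed by 1.15 (adjusted p = 0.0198 by limma) and Gpd1 by -2.74 (adjusted p = 0.00911 by limma). Whether these lists held more such genes than the 2.49% of all genes was not tested. Groups held 2 libraries each, too few for a check of single libraries against the rest of their group.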

How the results depend on the processing

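Of 2220 values under the alternatives, 1889 kept their direction and side of the threshold, 194 passed it newly, 90 fell below it and 47 turned direction. At MCE Hk2 and Pfkfb3 were called in 25 of 25 alternatives, and Pfkfb3 at Diff in 25 of 25. TPM keeps no depth, so low values carry an unknown counting error.

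In the knockdown comparisons the counts of called genes, of 10, moved most with the shScram preadipocyte pair, whose spread every fit on 12 libraries shares. From preadipocytes to MCE in shScram cells the MCE libraries moved the count most, to 4 and 3. Leaving out 1 library at a time gave 0 to 10 in preadipocytes, 2 to 9 at MCE and 1 to 10 at Diff for shFTO against shScram, 3 to 9 and 7 to 10 from preadipocytes to MCE in shScram and shFTO cells, 0 to 6 and 0 to 7 from MCE to Diff, and 1 to 8 and 0 to 2 for the 2 interactions. A lone library was assumed to vary like the other groups. The share of all genes called moved with the fit too. It is not given for the fits of this section, so these counts cannot be set against it. Fits on the libraries of the contrast alone gave 0, 9 and 10 for the knockdown, 0 from preadipocytes to MCE in shScram cells, 6 and 7 from MCE to Diff, and 2 for the second interaction. Without both shScram preadipocyte libraries, an alternative chosen after seeing the data, the counts were 9 at MCE, 10 at Diff, 6 and 7 from MCE to Diff and 2 for the second interaction. GC correction gave 2 (Pfkfb3 higher and Pkm lower), 6 and 7 for the knockdown, 5 and 5 from MCE to Diff, and 5 and 2 for the interactions. GC correction without shScram Pre replicate 1, also chosen after seeing the data, gave 4 (Pfkl, Pkm, Pgk1 and Ldha, all lower), 9, 10, 6, 7, 9 and 2 in the same order. Quantile normalization gave 0 in preadipocytes, 4 at MCE, and 2 and 1 for the interactions, median-ratio scaling 0 in preadipocytes and 6 and 6 from MCE to Diff, a pseudocount of 5 gave 0 in preadipocytes, and no filter on low values gave 1 and 1 from MCE to Diff.

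With the replicate number as a block the count was 0 in preadipocytes, 2 at MCE and 3 at Diff. It ended 2 calls, Pfkfb3 in preadipocytes (adjusted p = 0.0526 by limma) and Pkm from MCE to Diff in shFTO cells (adjusted p = 0.0643 by limma), and changed no other call of the 10 genes. The deviations of same-numbered libraries correlated from -0.29 to 0.17 over 15 pairs of groups, so the libraries share only a number.

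Values that turned direction in preadipocytes (shFTO against shScram) were, with GC correction, Pfkl -0.24, Gapdh -0.0031, Eno1 -0.21, Pkm -0.52 and Ldha -0.060, and with GC correction and without shScram Pre replicate 1, Pfkl -0.44, Aldoa -0.040, Gapdh -0.19, Eno1 -0.24, Pkm -0.39 and Ldha -0.52. Ldha was at -0.00047 with median-ratio scaling and -0.0043 with quantile normalization. Leaving out shScram Pre replicate 1 or 2 set the lowest and highest values there, Pfkl -0.22 to 0.97, Gapdh -0.12 to 0.61, Pgk1 -0.45 to 0.39, Eno1 -0.018 to 0.89, Pkm -0.16 to 0.46 and Ldha -0.48 to 0.66. At MCE Pfkp lay at -0.059 to 0.049 without 1 library. From preadipocytes to MCE in shScram cells Pfkfb3 lay at -0.099 to 0.059 without 1 library, 0.16 with median-ratio scaling and 0.14 with quantile normalization. From MCE to Diff in shScram cells Hk2 lay at -0.051 to 0.10 without 1 library, -0.22 with median-ratio scaling and -0.18 with quantile normalization, and Pfkfb3 at -0.11 and -0.23 with the same scalings. In shFTO cells Pfkp was at -0.087 with median-ratio scaling and Aldoa at 0.029 with quantile normalization. The first interaction lay, without 1 library, at -0.26 to 0.93 for Pfkl, -1.12 to 0.19 for Aldoa, -0.018 to 0.81 for Pgk1, -0.22 to 0.69 for Eno1 and -0.26 to 0.88 for Ldha, and for Aldoa at 0.071 with GC correction and 0.33 with it and without shScram Pre replicate 1. The second lay at -0.20 to 0.063 for Pfkl without 1 library, with quantile normalization at 0.019 for Pfkfb3, -0.023 for Pkm and -0.14 for Ldha, and for Aldoa at -0.065 with GC correction, with or without shScram Pre replicate 1. The cause was not tested.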
